A study of Mus musculus with 6 samples.

Results

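The 41 genes described here are interferon-stimulated genes and sensors of foreign nucleic acid, taken by symbol from a table of read counts for 24421 mouse genes. All 41 symbols were in the table, and all 41 passed the filter on low counts. The counts come from RNA sequencing of 6 neurofibromas, which are benign nerve sheath tumours, grown in mice of the C57BL/6J background. Every tumour carried Nf1fl/fl with DhhCre, so that Nf1, a brake on Ras, is deleted where the Dhh promoter, active in the Schwann cell lineage, drives Cre. The group miR155KO_Nf1KO (tumours MiRNC149, MiRNC640 and MiRNC670) also carried the knockout labelled Mir-155 KO, and the group Nf1KO (Nf803, Nf809 and Nf827) had the genotype label Nf1 -/-. No drug was given, and mice were kept to a set time or tumour size, neither of which the labels name, nor do they give age, sex or the cells in which miR-155 was removed. Each tumour has its own number, but no label states that different tumours mean different mice, and the spread behind every p-value is that of these 6 samples. The design text states that the comparison was made to look for possible targets of miR-155.

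Type I interferons are cytokines that cells release when sensors detect viral or misplaced nucleic acid. They bind a receptor of IFNAR1 and IFNAR2, whose kinases JAK1 and TYK2 phosphorylate STAT proteins such as STAT2, which join IRF9 in a complex that binds the interferon-stimulated response element in the promoters of the genes described here. The products degrade or sequester viral RNA, block translation and budding, and feed back on the pathway. In tumours these genes are transcribed in tumour cells as well as in infiltrating macrophages and dendritic cells.

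Total reads ran from 13061129 to 16333181 per tumour. Levels are given as counts per 1e+06 reads (CPM) of a library size scaled by edgeR's trimmed mean of M values, always in the order MiRNC149, MiRNC640 and MiRNC670 and then Nf803, Nf809 and Nf827. Mir155hg, the host transcript of miR-155, had 5, 3 and 1 reads against 57, 66 and 71 reads, which matches the genotype labels, whereas Nf1 was at 324, 309 and 390.2 CPM against 358, 292 and 320.1 CPM. A read count of Nf1 from whole tissue does not test the Cre-driven deletion. By Xist and Y-linked counts, MiRNC149, Nf803 and Nf827 were female and the other 3 tumours male. The Schwann cell markers Sox10 and S100b were read in all 6 tumours, with group means of 299 ± 29.8 against 242 ± 24.95 CPM for Sox10 and 353 ± 54.5 against 131 ± 10.1 CPM for S100b (SD, n = 3, miR155KO_Nf1KO first).

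The mature strand of miR-155 that the knockout removes is shown 5′ to 3′ with its seed, bases 2 to 8, in capitals (RefSeq, GRCm38.p6, chr16:84714143-84714165, plus strand).
mmu-miR-155-5p: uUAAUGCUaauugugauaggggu

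Interferon response genes were lower in the tumours without miR-155. Of the 41 genes, 21 fell at an adjusted p under 0.05 (edgeR quasi-likelihood test, Benjamini-Hochberg over 15604 genes), while 4.74% of all genes tested fell. None rose (0 of 41 by edgeR, by its unadjusted p under 0.05 and by DESeq2), while 5.22% of all genes rose. At an unadjusted p under 0.05, 36 of the 41 were lower, against 13.2% of all genes. The median log2 fold change of the 41 genes, miR155KO_Nf1KO minus Nf1KO, was -1.40, beside 0.01 for all genes tested, and 40 of the 41 had a negative value, against 49.5% of all genes. Fold changes and the sizes of falls are on the log2 scale unless written as a fold. They ran from -3.22 for the oligoadenylate synthetase-like gene Oasl1 to 0.15 for Ifi27. In 37 of the 41 genes every miR155KO_Nf1KO tumour was below every Nf1KO tumour, which was so for 16.3% of all genes tested, and the 4 with overlapping ranges were Irf1, Rsad2, Ifi27 and Ifi27l2a. The 41 genes and the comparison were chosen with earlier results of these data in view, so these counts and medians are descriptions and no test was made over the list.

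**Figure D1:**
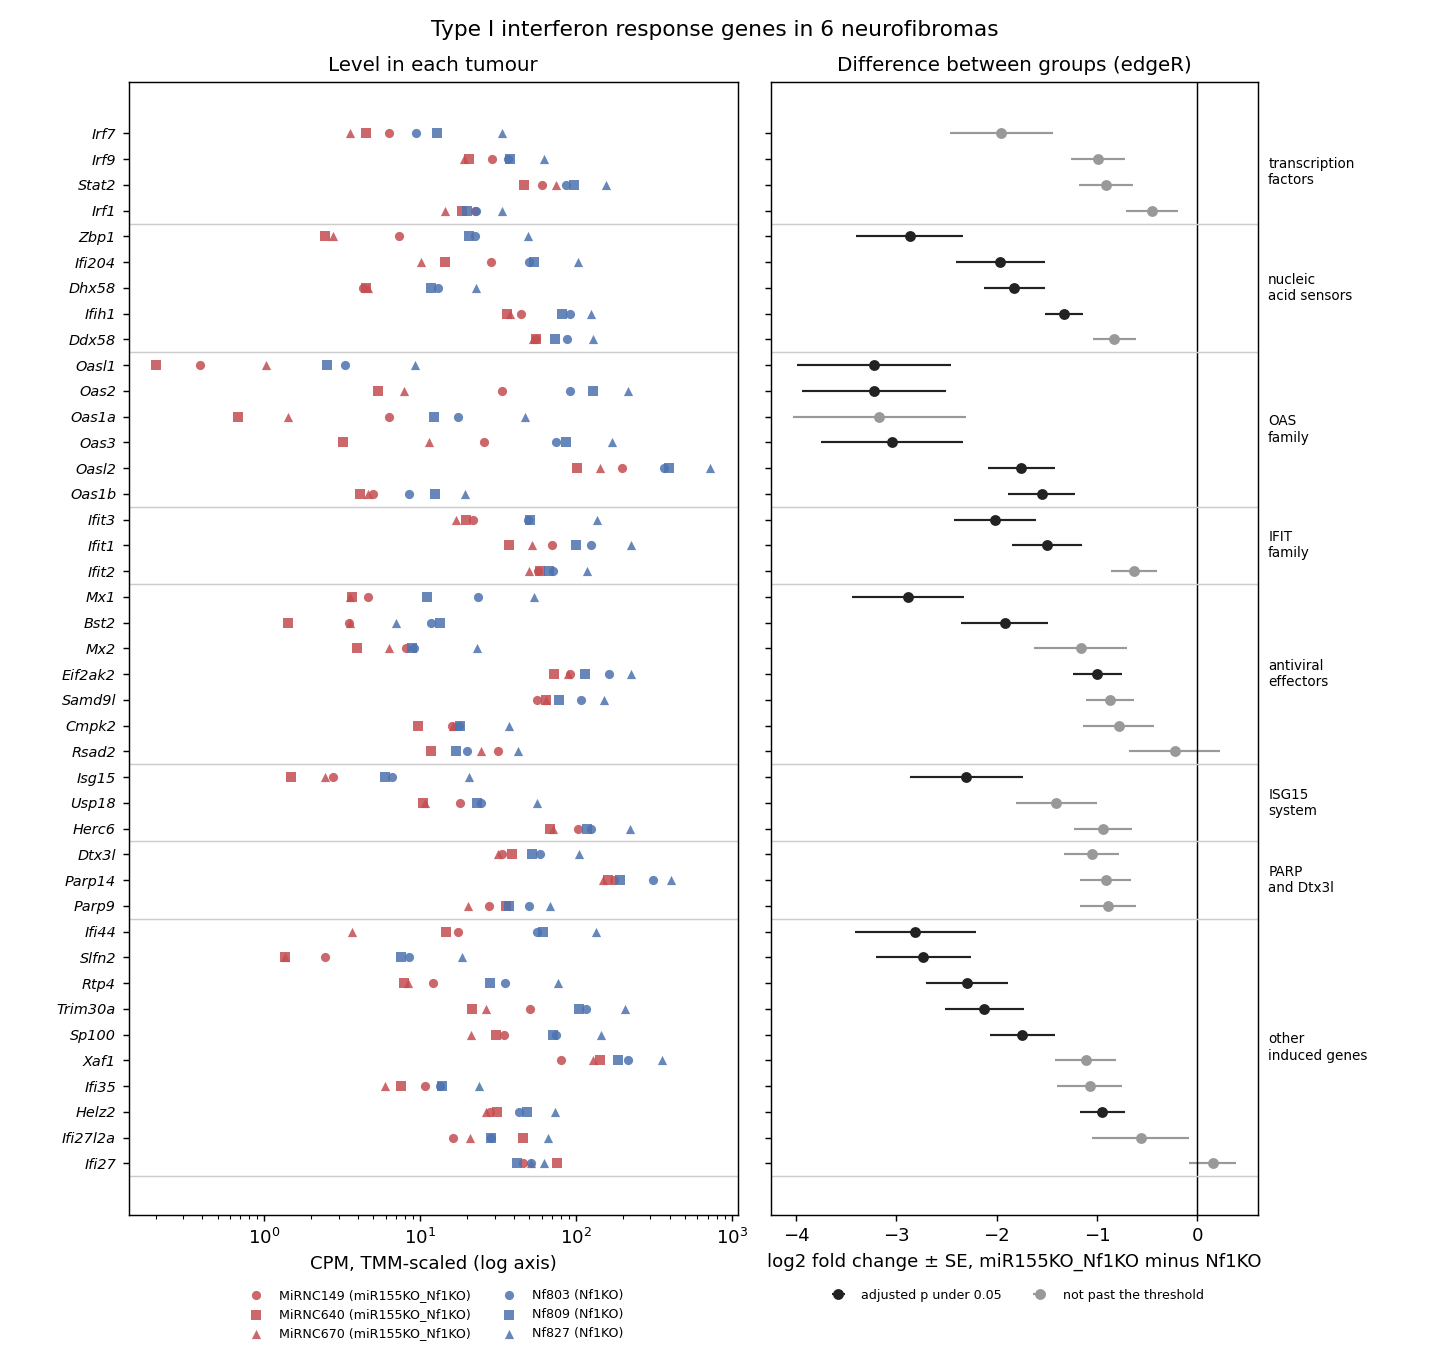
The left panel plots the level of each of the 41 genes in each tumour as TMM-scaled CPM on a log axis, and the right panel the edgeR log2 fold change with its SE, with genes grouped by role and black points for adjusted p under 0.05. The red points (miR155KO_Nf1KO) lie left of the blue points (Nf1KO) in 37 genes, and the blue triangle of Nf827 stands at the far right in 39.

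Markers of leukocytes fell in the same tumours. For the counts in this paragraph, 4.74% of all genes tested fell and 5.22% rose by edgeR. At its unadjusted p under 0.05, 13.2% were lower, and DESeq2 called 8.27% of genes with an adjusted p lower. The 4 pan-leukocyte markers (Ptprc, Laptm5, Coro1a and Cd53) all fell, and their summed level was 81.2 to 163 CPM in miR155KO_Nf1KO and 337 to 1010 CPM in Nf1KO, with no marker at 0 in any tumour. Macrophage markers were at 551 to 1188 CPM against 1510 to 2650 CPM in sum, again with none at 0. Of the 12, 6 fell by edgeR and 10 by DESeq2. Lyz2 and Mertk overlapped between groups, with log2 fold changes of -0.38 (SE 0.35) and 0.38 (SE 0.35). Conventional dendritic cell markers were at 47.7 to 86.0 CPM against 201 to 436 CPM in sum, and none was at 0. Of the 6, 4 fell by edgeR and 5 by DESeq2, while Zbtb46 overlapped between groups (-0.15, SE 0.29). Of the 5 markers of plasmacytoid dendritic cells, the main interferon producers, 3 were tested and none passed (0 by edgeR, at its unadjusted p under 0.05 and by DESeq2). Klk1 and Ly6d were at 0 in some tumours, and the sum over the 5 was 23.0 to 27.7 CPM against 35.5 to 59.7 CPM. Cox6a2, one of the 5 and also a muscle gene, was at 1.67, 1.28 and 13.9 CPM against 1.60, 18.98 and 1.004 CPM, highest in MiRNC670 and Nf809, the tumours with most skeletal muscle RNA. Without it the sums were 26.1, 21.7 and 13.1 CPM against 36.1, 16.5 and 58.7 CPM, and the groups overlapped. The sum over the 41 interferon response genes was 1541, 1290.1 and 1292 CPM against 2791, 2540.0 and 4956 CPM. Nf827 was highest and MiRNC640 lowest in this sum and in those of the pan-leukocyte, macrophage and conventional dendritic cell markers. In the interferon sum MiRNC640 and MiRNC670 were almost level. The part of leukocyte content in the interferon result was not tested. Of the other lists, fibroblast markers fell in 1 of 4 (none at 0) by edgeR and in 3 by DESeq2. Natural killer cell markers fell in 1 of 5 (Ncr1 and Gzma at 0 in some tumours) and neutrophil markers in 1 of 3. The natural killer marker that fell, Klrd1, was at 0.644, 0.405 and 0.634 CPM against 9.29, 9.83 and 16.3 CPM. Klrb1c, Nkg7 and Gzma overlapped between groups. Neuron markers rose in 4 of 6 by edgeR and in 6 by DESeq2. Their sum was 3219 to 4777 CPM against 749 to 1361 CPM. By edgeR 0 of 4 T cell, 3 B cell, 5 mast cell, 5 endothelial, 4 skeletal muscle and 3 adipocyte markers tested were called. All 4 T cell markers and 1 B cell marker were lower at an unadjusted p under 0.05, 0 of the others moved at that level, and DESeq2 called 3 of the T cell markers lower and 0 of the rest. In whole tumours, fewer cells of a type and less RNA per cell cannot be told apart.

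**Figure D2:**
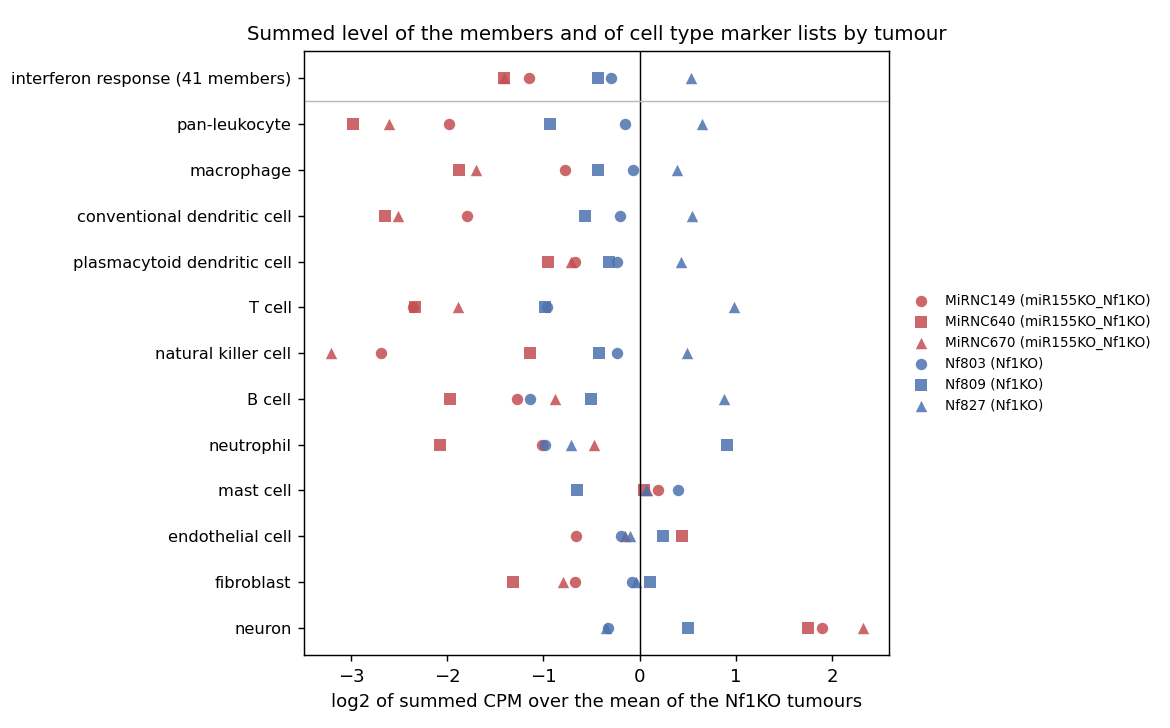
Each point is the summed CPM of a list in 1 tumour, as log2 of its ratio to the mean of the 3 Nf1KO tumours, with red for miR155KO_Nf1KO and blue for Nf1KO. Sums of the interferon response genes and of the leukocyte, macrophage and conventional dendritic cell lists do not overlap between groups, with miR155KO_Nf1KO below. The same holds for T cells, natural killer cells and fibroblasts, although Klrb1c, Nkg7 and Gzma of the natural killer list overlap singly. So do Lyz2 and Mertk of the macrophage list and Zbtb46 of the conventional dendritic cell list. The plasmacytoid dendritic cell sum is apart only with Cox6a2 in it. Sums of neuron markers do not overlap, with miR155KO_Nf1KO above.

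Within Nf1KO, 1 tumour was highest in nearly all of the 41 genes, while the order within miR155KO_Nf1KO was more mixed. In Nf1KO, Nf827 was highest in 40 of the 41 genes and Nf809 lowest in 26, and the highest tumour exceeded the lowest by a median of 2.06-fold. In miR155KO_Nf1KO, MiRNC149 was highest in 28 of the 41 genes, MiRNC640 was lowest in 20 and MiRNC670 in 16. The median ratio of highest to lowest was 1.73. How often these tumours were highest or lowest over all genes tested was not computed. Bst2 was the 1 gene for which Nf827 was not the highest of Nf1KO, and Ifi27 was highest in MiRNC640. Among the 3 female tumours, MiRNC149 was below both Nf1KO tumours in 40 of 41 genes, which was so for 39.2% of all genes tested, with a median log2 difference of -1.33. In the 3 male tumours, MiRNC640 and MiRNC670 were both below Nf809 in 38 of 41 genes, which was so for 39.9% of all genes tested, with a median of -1.14.

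The number of calls varied with the tool and, most widely in edgeR, with which tumour was left out. DESeq2 called 34 of the 41 genes lower (8.27% of all genes with an adjusted p), all 21 edgeR calls among them, and the 7 it did not call were Irf1, Ifit2, Mx2, Rsad2, Cmpk2, Ifi27 and Ifi27l2a. With edgeR, 0 of the 41 genes were called without MiRNC640, MiRNC670, Nf803 or Nf827, although 36, 33, 37 and 33 of them were lower at an unadjusted p under 0.05. These 4 edgeR fits called 0.268%, 0%, 0% and 0% of all genes lower. Their share of all genes lower at an unadjusted p under 0.05 was not computed, and with all 6 tumours it was 13.2%. DESeq2 called 29, 25, 31 and 24 of the 41 in the same order, with 6.09%, 6.19%, 5.93% and 5.44% of all genes. Without MiRNC149 edgeR called 14 (4.16% of all genes) and DESeq2 34 (9.39%), and without Nf809 they called 31 (6.61%) and 36 (9.06%). Over the 6 edgeR fits that left out 1 tumour each, the median of the 41 genes ran from -1.64 to -1.085, nearest to 0 without Nf827. Sex as a covariate gave 15 calls (3.22% of all genes tested). Skeletal muscle markers summed to 1.87 to 262 CPM in 4 tumours, 1710 CPM in MiRNC670 and 1451 CPM in Nf809, and without these last 2 tumours edgeR called 11 of the 41 genes (3.24% of all) and DESeq2 30 (7.05%).

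**Figure D3:**
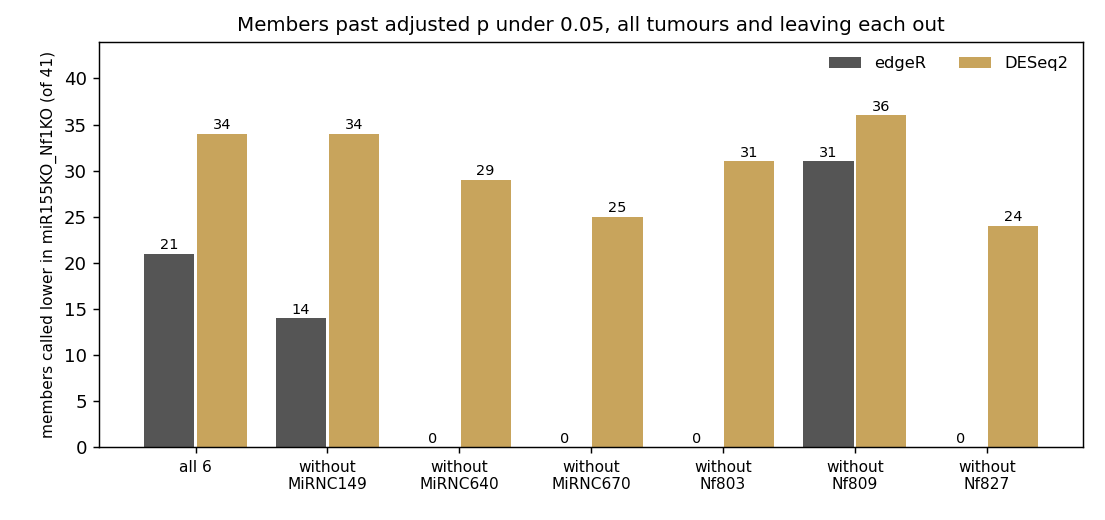
Bars count how many of the 41 genes were called lower in miR155KO_Nf1KO at an adjusted p under 0.05 by edgeR (grey) and DESeq2 (tan), with all 6 tumours and with each left out. The edgeR count is 21 with all tumours and 0 without MiRNC640, MiRNC670, Nf803 or Nf827, and the DESeq2 count lies between 24 and 36.

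Promoters of some of these genes hold the core of the interferon-stimulated response element. The sequence GAAANNGAAA was searched on both strands in 300 bases around each RefSeq start (250 before and 50 after), for which the table held 28 of the 41 genes. It was found in 12 of the 28, beside 3.99% of 27025 genes and 3.44% of 32851 windows. Of the 14 genes with a window that fell, 8 held it, and of the 14 not called, 4 held it (Ddx58, Oas1a, Stat2 and Rsad2). The stretch from 160 to 21 bases before the start is shown for Isg15, Ifit1, Ifit3 and Oas3, which fell, and for Rsad2, which did not pass the test, with each match in capitals, 5′ to 3′ on the gene's strand. Isg15 (GRCm38.p6, chr4:156200839-156200978, minus strand) has 3 overlapping matches. Ifit1 (GRCm38.p6, chr19:34640729-34640868, plus strand) and Ifit3 (GRCm38.p6, chr19:34583369-34583508, plus strand) have 2 each on the opposite strand. Oas3 (GRCm38.p6, chr5:120777680-120777819, minus strand) has 1, as does Rsad2 (GRCm38.p6, chr12:26456473-26456612, minus strand), whose match lies on the opposite strand. A match in these windows is a description and does not show that a factor binds there.
Isg15: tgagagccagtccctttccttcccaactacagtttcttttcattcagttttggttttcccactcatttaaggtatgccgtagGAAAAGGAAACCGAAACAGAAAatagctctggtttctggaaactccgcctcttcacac
Ifit1: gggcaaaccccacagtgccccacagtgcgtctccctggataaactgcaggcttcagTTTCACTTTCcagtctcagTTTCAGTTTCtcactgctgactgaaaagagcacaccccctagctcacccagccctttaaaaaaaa
Ifit3: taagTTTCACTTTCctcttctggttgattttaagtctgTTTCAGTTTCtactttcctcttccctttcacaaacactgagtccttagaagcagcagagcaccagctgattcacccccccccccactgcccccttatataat
Oas3: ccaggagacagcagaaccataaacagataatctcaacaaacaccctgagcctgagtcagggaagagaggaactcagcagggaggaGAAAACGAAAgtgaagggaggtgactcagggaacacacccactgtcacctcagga
Rsad2: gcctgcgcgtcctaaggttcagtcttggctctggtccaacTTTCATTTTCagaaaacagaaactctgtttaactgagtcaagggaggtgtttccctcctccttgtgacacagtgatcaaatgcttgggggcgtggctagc

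Of the transcription factors that carry the signal, none of the 4 listed was called by edgeR (0 lower, 0 higher), though 3 were lower at an unadjusted p under 0.05, and DESeq2 called Stat2, Irf7 and Irf9. Irf7, which amplifies interferon production, was at 6.31, 4.46 and 3.56 CPM in miR155KO_Nf1KO and at 9.36, 12.7 and 33.6 CPM in Nf1KO. The groups did not overlap, Nf827 stood far above the other tumours, and the log2 fold change was -1.95 (SE 0.51, edgeR adjusted p = 0.0560). Irf9, the DNA-binding partner of the STAT proteins, was at 28.7, 20.6 and 19.1 CPM against 36.3, 37.6 and 61.8 CPM, also without overlap (-0.99, SE 0.27, edgeR adjusted p = 0.0608). Stat2 had a log2 fold change of -0.91 (SE 0.27). Irf1, a factor that both interferon classes induce, had -0.45 (SE 0.26), with MiRNC149 level with Nf803 and above Nf809.

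Of the 5 sensors of nucleic acid, 4 fell. Ifih1, which encodes the sensor MDA5 of long RNA duplexes (ENSMUSG00000026896.14, chr2:62595798-62646255), was at 44.5, 35.9 and 37.4 CPM against 91.2, 80.7 and 124 CPM, and the groups did not overlap. It fell by 1.33 (SE 0.19), or 2.51-fold, and its adjusted p of 0.02005 was the smallest of the 41 genes (edgeR). Dhx58, which encodes LGP2, a partner of MDA5, was at 4.31, 4.46 and 4.59 CPM against 12.99, 11.7 and 22.7 CPM. The 3 miR155KO_Nf1KO tumours were almost level in Dhx58, which fell by 1.82 (SE 0.30, edgeR adjusted p = 0.0236). Zbp1, a sensor of left-handed nucleic acid that can trigger necroptosis, fell by 2.87 (SE 0.54), and Ifi204, of the family of IFI16 DNA sensors, fell by 1.96 (SE 0.45). Ifi204 has close copies in its gene cluster, so its count is uncertain. Ddx58, which encodes RIG-I, had a log2 fold change of -0.83 (SE 0.21, edgeR adjusted p = 0.0544).

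The oligoadenylate synthetase genes held the 4 most negative fold changes of the 41. These enzymes are activated by viral RNA and make short oligoadenylate messengers, while the OASL proteins lack or have altered synthetase activity. Of 6, 5 fell. Oasl2 (ENSMUSG00000029561.17, chr5:114896936-114912234) had the most reads of the family, at 197, 101 and 143 CPM against 365, 395 and 726 CPM, and fell by 1.75 (SE 0.34, edgeR adjusted p = 0.0269). Oas1b, annotated as a polymorphic pseudogene in GENCODE, was at 4.96, 4.12 and 4.59 CPM against 8.42, 12.4 and 19.3 CPM and fell by 1.55 (SE 0.34, edgeR adjusted p = 0.0351). All Nf1KO values of both genes lay above all miR155KO_Nf1KO values.

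Larger falls in this family came with a wide spread among the miR155KO_Nf1KO tumours. Oas2, named here after its values were seen, was at 33.3, 5.34 and 7.84 CPM against 91.9, 129 and 215 CPM and fell by 3.22 (SE 0.72). Oas3, likewise, was at 25.6, 3.17 and 11.4 CPM against 74.3, 86.1 and 171 CPM and fell by 3.04 (SE 0.71). MiRNC149 was highest of its group in both. Oas1a was also highest there, at 6.31, 0.675 and 1.43 CPM against 17.3, 12.2 and 47.001 CPM, and its log2 fold change of -3.17 (SE 0.86) did not pass (edgeR adjusted p = 0.0608, DESeq2 called it). Oas1a has the close copy Oas1g beside it, so the split of reads between them is uncertain. Oasl1, at 6, 3 and 13 reads against 45, 41 and 138 reads, fell by 3.22 (SE 0.77).

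The IFIT genes encode proteins that bind viral RNA ends, and 2 of 3 fell. Ifit3 was at 21.7, 19.6 and 16.9 CPM against 49.4, 50.8 and 135 CPM, with Nf803 and Nf809 level and Nf827 well above them, and fell by 2.02 (SE 0.41, edgeR adjusted p = 0.0301). Its close copy Ifit3b fell by 1.82 (SE 0.44), and reads of the pair may have been shared. Ifit1 was at 69.5, 37.4 and 52.3 CPM against 124, 100.3 and 225 CPM and fell by 1.497 (SE 0.35, edgeR adjusted p = 0.0403). Ifit2, in the same cluster on chromosome 19, had a log2 fold change of -0.63 (SE 0.23, edgeR adjusted p = 0.129), and its groups did not overlap.

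Among 7 antiviral effectors, 3 fell. Mx1, of the family of dynamin-like GTPases, was at 4.64, 3.65 and 3.56 CPM against 23.4, 11.004 and 53.7 CPM. All Nf1KO tumours lay above miR155KO_Nf1KO, with Nf827 highest, and Mx1 fell by 2.89 (SE 0.56), or 7.41-fold (edgeR adjusted p = 0.0270). Bst2, which encodes tetherin and holds budding virus at the membrane, was at 3.48, 1.42 and 3.56 CPM against 11.7, 13.4 and 7.03 CPM. It fell by 1.92 (SE 0.43, edgeR adjusted p = 0.0382), with Nf827 lowest of its group. Eif2ak2, which encodes the translation-blocking kinase PKR, fell by 0.999 (SE 0.24). Samd9l, a restriction factor of poxviruses, had -0.87 (SE 0.24). Mx2, annotated as a polymorphic pseudogene in GENCODE, had -1.16 (SE 0.46), and neither passed.

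Rsad2 and Cmpk2 are neighbours in the genome, 12.8 kb apart on opposite strands of chromosome 12, and neither was called by edgeR or DESeq2. Rsad2 encodes viperin, which makes a chain-terminating nucleotide from the triphosphate that the kinase encoded by Cmpk2 supplies. Rsad2 was at 31.5, 11.7 and 24.5 CPM against 19.9, 16.9 and 42.2 CPM, and MiRNC149 and MiRNC670 stood above Nf803 and Nf809. Its log2 fold change was -0.22 (SE 0.45, edgeR adjusted p = 0.802), and its sign turned without Nf827 (0.29), without MiRNC640 (0.09) and with sex as a covariate (0.06). Cmpk2 was at 16.1, 9.73 and 16.3 CPM against 17.6, 17.99 and 36.9 CPM, a log2 fold change of -0.78 (SE 0.35, edgeR adjusted p = 0.210). Values per tumour of both, and of Oas1a, Oasl1 and Ifi27l2a, are given by a choice made after they were seen.

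Of the 3 genes of the ISG15 system, edgeR called 1 lower and DESeq2 all 3. The edgeR call was Isg15, the ubiquitin-like modifier that is attached to other proteins. It was at 2.77, 1.49 and 2.46 CPM against 6.61, 5.93 and 20.7 CPM, without overlap, and fell by 2.30 (SE 0.57, edgeR adjusted p = 0.0467). Usp18, the protease that removes it and restrains the receptor, was at 18.03, 10.4 and 10.7 CPM against 24.5, 22.996 and 56.2 CPM, with MiRNC149 nearest to Nf1KO. Its log2 fold change was -1.40 (SE 0.41, edgeR adjusted p = 0.0726). Herc6, the main ligase for ISG15 in mice, had -0.94 (SE 0.29).

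The 3 genes Parp9, Parp14 and Dtx3l, whose products add ADP-ribose or ubiquitin, lie together on chromosome 16, and none was called by edgeR, though all 3 were lower at an unadjusted p under 0.05 and called by DESeq2. Dtx3l was at 33.4, 38.5 and 31.7 CPM against 58.3, 52.2 and 104 CPM (-1.05, SE 0.27, edgeR adjusted p = 0.0547). Parp14 was at 176, 160.3 and 148.7 CPM against 313, 192 and 407 CPM (-0.91, SE 0.26, edgeR adjusted p = 0.0660). The groups of both were apart, with Nf809 nearest to miR155KO_Nf1KO. Parp9 had -0.89 (SE 0.28). Exons of Dtx3l and Parp9 share 458 bases on opposite strands (8% and 9.4% of their exon length), so reads there cannot be told apart without a stated strand setting.

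In the group of other induced genes, 6 of 10 fell. Slfn2, a schlafen protein that keeps T cells and monocytes quiescent, was at 2.45, 1.35 and 1.35 CPM against 8.49, 7.48 and 18.5 CPM, far apart between groups. It fell by 2.73 (SE 0.47, edgeR adjusted p = 0.0244). Rtp4, a chaperone of receptor transport that also curbs flaviviruses, was at 12.1, 7.90 and 8.32 CPM against 34.98, 27.9 and 76.3 CPM and fell by 2.29 (SE 0.41, edgeR adjusted p = 0.0255). Ifi44 fell by 2.81 (SE 0.60), Trim30a, a brake on inflammatory signalling with close copies nearby, fell by 2.12 (SE 0.40), the nuclear body protein gene Sp100 fell by 1.74 (SE 0.32), and the helicase gene Helz2 fell by 0.95 (SE 0.23). The pro-apoptotic gene Xaf1 had -1.11 (SE 0.30) and Ifi35 -1.07 (SE 0.32), and neither passed.

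Ifi27 was the gene with a positive log2 fold change. It encodes a small mitochondrial membrane protein and was at 45.7, 75.3 and 51.01 CPM against 51.03, 41.6 and 62.1 CPM, with MiRNC640 highest of the 6 tumours and the groups overlapping. Its log2 fold change was 0.15 (SE 0.24, edgeR adjusted p = 0.734), and -0.09 without MiRNC640. Ifi27l2a, 1.93 kb away on the opposite strand of chromosome 12, had -0.56 (SE 0.48) and was likewise highest of its group in MiRNC640, at 16.3, 45.9 and 20.8 CPM against 28.2, 28.3 and 66.1 CPM. The 2 genes are close relatives, so their counts are uncertain.

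Per length of annotated exon, the most abundant of the 41 genes in Nf1KO were Ifi27l2a, Oasl2, Ifit1 and Xaf1. Their levels were 88.3 ± 47.1, 77.7 ± 31.5, 56.4 ± 24.9 and 53.7 ± 19.3 RPKM (reads scaled by exon length and library size, mean and SD, n = 3). Each differed from the next in this order by less than its own SD. In miR155KO_Nf1KO the same genes were at 59.7 ± 34.4, 23.1 ± 7.52, 19.97 ± 6.06 and 24.8 ± 6.92 RPKM, and Ifi27, at 39.1 ± 10.8 RPKM, stood between Ifi27l2a and Xaf1. Oasl1 was the least abundant in both groups, at 1.92 ± 1.41 RPKM in Nf1KO and 0.207 ± 0.167 RPKM in miR155KO_Nf1KO.

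Seed sites for miR-155 were looked for in the 41 genes. The search took the longest annotated 3′ UTR per gene (GENCODE M21) and searched for AGCATTAA, a site of 8 bases, and for the 7-base sites GCATTAA and AGCATTA within it. It found that 4 of the 41 genes held a 7-base site and 0 the 8-base site. Of 19532 genes with a 3′ UTR, 13.3% held a site and 3.17% the 8-base site. The 4 sites are printed with the match in capitals and 8 bases on either side, beside that of Socs1, an inhibitor of interferon receptor signalling that is a literature target of miR-155.
Mx1: agaccaagGCATTAAtaaaccct
Trim30a: ctccacatAGCATTAcaaccctg
Dtx3l: tattatctGCATTAAataaagtc
Ifit2: ttctctatGCATTAAgtccatcg
Socs1: tgtgccgcAGCATTAAgtgggggc
By edgeR Mx1 and Trim30a fell and Dtx3l and Ifit2 were not called. Whether these sites have a part in the levels was not tested. Mx1 lies on the chromosome of Mir155hg, 12.7 Mb from it, and Mx2 12.8 Mb. Socs1 had 2, 5 and 1 reads against 4, 1 and 7 reads, too few for the filter, and was not tested.

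Outside the 41 genes, the interferon pathway moved in part. Of 55 genes listed as ligands, receptors, kinases, adaptors and regulators, 35 were tested and 10 fell, against 4.74% of all genes tested. None rose (0 by edgeR, at its unadjusted p under 0.05 and by DESeq2), and the median log2 fold change was -0.70. DESeq2 called 14 lower (8.27% of all genes with an adjusted p). With edgeR, 0 were called without MiRNC640, MiRNC670, Nf803 or Nf827 (0.268%, 0%, 0% and 0% of all genes). It called 5 without both MiRNC670 and Nf809 (3.24%), and 6 with sex as a covariate (3.22%). Ligand transcripts were hardly read. Of 20 genes of type I and III interferons, 15 had no read in any of the 6 tumours (a count of 0 in the smallest library leaves room for 0.238 CPM). The 4 others beside Ifnk had 4 reads in all of miR155KO_Nf1KO and 2 in all of Nf1KO. The 1 ligand tested, Ifnk, a keratinocyte interferon, was at 2.25, 5.40 and 4.198 CPM against 3.63, 1.17 and 5.02 CPM (0.27, SE 0.58).

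The receptor genes of type I interferon did not pass the test. The mean of Ifnar1 was 101 ± 13.8 CPM in the first group and 122 ± 15.9 CPM in the second (SD, n = 3), a log2 fold change of -0.27 (SE 0.15), and Ifnar2 at 108 ± 8.83 and 148.7 ± 51.8 CPM (-0.46, SE 0.24). The kinase gene Jak1 was at 269.5 ± 8.18 and 259 ± 17.4 CPM (0.06, SE 0.10) and Tyk2 had -0.64 (SE 0.18). Ifnlr1, the chain specific to the type III receptor, fell by 2.26 (SE 0.56), and its partner Il10rb had -0.41 (SE 0.24).

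Of 6 further STAT and IRF genes, 3 fell. Irf8, a factor of myeloid and dendritic cells, fell by 2.07 (SE 0.39). Irf5, a factor of inflammatory macrophages, fell by 2.01 (SE 0.39), and Irf2, a repressor of interferon targets, fell by 0.54 (SE 0.13). Irf3, the factor that sensors activate first, had -0.18 (SE 0.18), and Stat3 -0.05 (SE 0.14).

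Among 13 adaptors, kinases and receptors of the sensing pathways, 3 fell. The log2 fold changes were -1.90 for Tmem173, which encodes STING (SE 0.40), -1.05 for Tlr3, an endosomal RNA receptor (SE 0.22), and -0.85 for Trim25, a ligase that activates RIG-I (SE 0.21). The adaptor gene Mavs had -0.21 (SE 0.18) and the kinase gene Tbk1 0.09 (SE 0.14). Ikbke, a kinase gene and literature target of miR-155, was at 6.05, 2.90 and 3.01 CPM against 3.70, 10.01 and 5.89 CPM, with the groups overlapping (-0.71, SE 0.47). Of the negative regulators, the phosphatase gene Ptpn6 fell by 2.28 (SE 0.46) and the nucleotide hydrolase gene Samhd1 fell by 1.11 (SE 0.21).

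**Figure D4:**
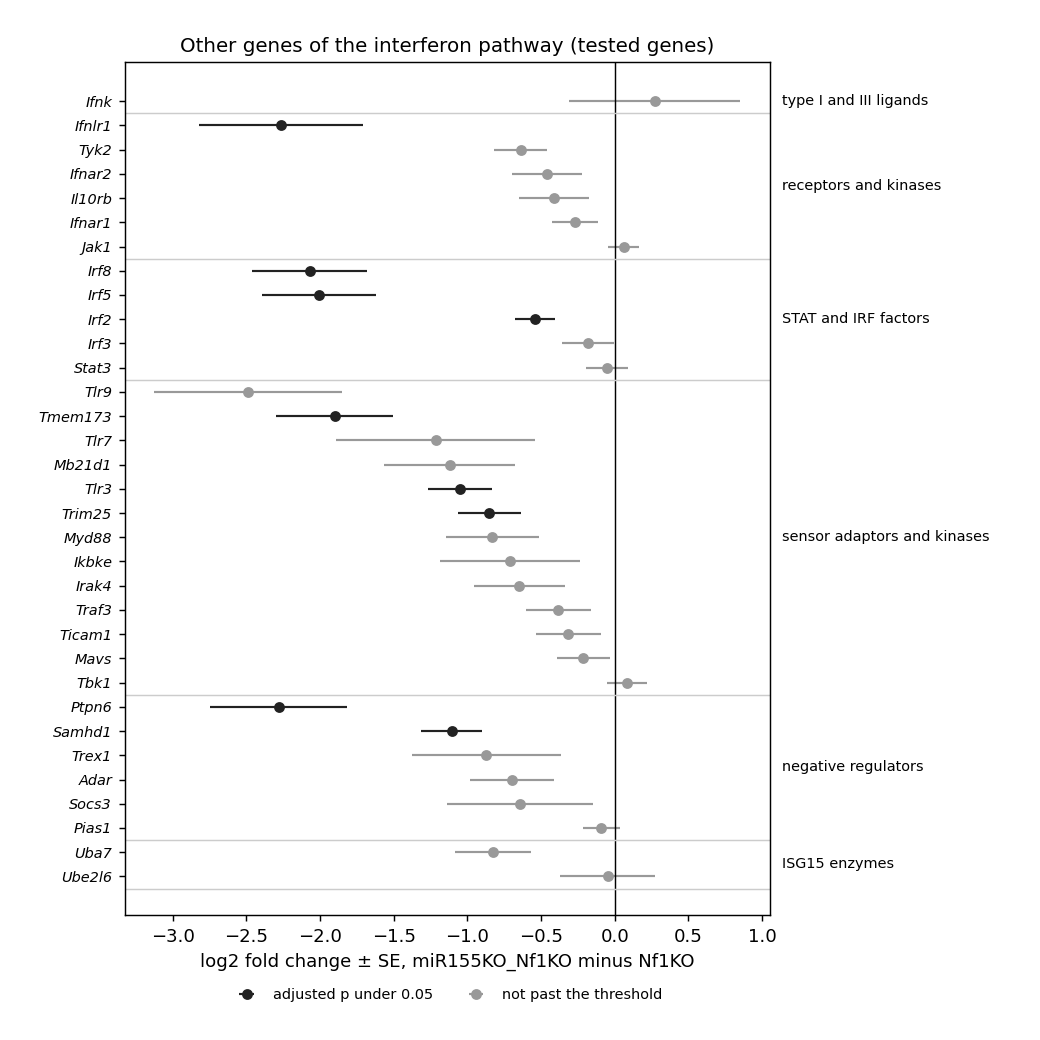
Points give the edgeR log2 fold change, miR155KO_Nf1KO minus Nf1KO, with SE for 33 of the 35 tested genes of the pathway list, grouped by role, in black for adjusted p under 0.05. The 9 black points all lie below 0, while Jak1, Tbk1 and Ifnk are the 3 points above 0.

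A related family, the GTPases and receptor of the response to interferon gamma, was set beside the 41 genes. Of 20 listed, 18 were tested and 6 fell, against 4.74% of all genes tested. None rose (0 by edgeR and by DESeq2, while Gbp11, at 1.14, was higher at an unadjusted p under 0.05). The median log2 fold change was -1.01, and a difference from the 41 genes was not tested. DESeq2 called 14 lower (8.27% of all genes with an adjusted p). With edgeR, 0 were called without MiRNC640, MiRNC670, Nf803 or Nf827 (0.268%, 0%, 0% and 0% of all genes). It called 4 without MiRNC149 (4.16%), 10 without Nf809 (6.61%), and 3 without both MiRNC670 and Nf809 (3.24%). The 6 were Gbp3 (fell by 1.52), Gbp5 (fell by 1.018), Gbp8 (fell by 3.18), Irgm1 (fell by 1.44), Tgtp2 (fell by 2.31) and the receptor chain gene Ifngr2 (fell by 0.92). Ifng itself had 0, 0 and 0 reads against 0, 0 and 1 reads.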

How the data were processed

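The authors deposited 1 table of unscaled read counts, with gene symbols as rows and the 6 tumours as columns. HISAT2 2.0.5, featureCounts 1.5.2 and the build mm10 were used, per the submitters' processing notes. For the annotation, the strand setting and multiply mapped reads, no setting is given in the sources used here, so reads of overlapping genes and close copies may have been shared or dropped. The 24421 symbols included 4229 with 0 reads in every tumour.

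Groups came from the sample titles, and columns were matched to samples by the names in the titles. Counts were tested with the edgeR 4.0.16 quasi-likelihood test, two-sided, in R 4.3.3, after filterByExpr (minimum count 10, minimum total 15) and TMM scaling, with group as the only term. Benjamini-Hochberg adjustment ran over 15604 genes, and calls needed an adjusted p under 0.05. Each SE is the log2 fold change over the root of its F statistic. CPM is per 1e+06 reads of the TMM-scaled library. At these depths counting error is small for all but the lowest genes, so the tumours' own spread limits the precision. Tumours of 1 group differed by at least 22.7 times the variance of Poisson sampling, so none was counted as a repeat.

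The 41 genes, their roles, the pathway list, the GTPase list and the marker lists were chosen with earlier results of these data known. All 41 are named; per role, the 2 with the smallest p, and Ifi27 for its sign, have a value in every tumour, and further ones are marked. Of the pathway list, called genes, receptors, kinases, STAT and IRF factors, Socs1 and Ikbke are named, except for a few items of the pathway and marker lists that enter the counts and are not reported here. Coordinates and exon lengths are from GENCODE M21 (GRCm38, which mm10 names), promoters and the microRNA from RefSeq GRCm38.p6. The alternatives were 3 other scalings, 2 other filters, DESeq2 1.42.0, limma 3.58.1 voom with and without quality weights, robust edgeR, sex as a covariate and leaving out each tumour. DESeq2 without each tumour, and both tools without MiRNC670 and Nf809, the tumours with most skeletal muscle RNA, were added after seeing the data, as was the plasmacytoid dendritic cell sum without Cox6a2.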

Additional observations from a re-analysis of the deposited data

How the results depend on the processing

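Over the 24 alternatives the median log2 fold change of the 41 interferon response genes ran from -1.64 to -1.085, within 0.567 of its value. That bound is the larger of the groups' SDs of the mean log2 level of the 41 genes per tumour, not an error of the median. In these fits 0 of the 41 genes and 0 pathway genes were called higher. DESeq2 called 34 of the 41 genes and 14 GTPases lower. Leaving out 1 tumour at a time, edgeR called 0 to 31 of the 41 genes, 0 to 11 pathway genes and 0 to 10 GTPases lower, and DESeq2 24 to 36, 9 to 17 and 7 to 14. Separately, the GTPase counts by DESeq2 included 11 without MiRNC149, 12 without MiRNC640, 13 without Nf803 and 14 without Nf809. Sex as a covariate left 6 pathway genes. Without MiRNC670 and Nf809, edgeR called 11 of the 41 genes, 5 pathway genes and 3 GTPases, and DESeq2 10 GTPases. Fits without tumours have fewer samples, and the cause of the differing counts was not tested for any alternative.

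The log2 fold change of Rsad2 turned to 0.057 with sex as a covariate, and by DESeq2 to 0.084 without MiRNC640 and 0.28 without Nf827. Leaving out 1 tumour in edgeR it ran from -0.54 to 0.29. The log2 fold change of Ifi27 ran from -0.092 to 0.30, and was -0.097 by DESeq2 without MiRNC640. No paired analysis was possible because the groups share no tumour numbers. Socs1 and all ligand genes but Ifnk failed the filter on low counts and were not tested.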
